A study of Mus musculus with 16 samples.

Results

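The numbered Zfp genes are mouse genes whose symbol is Zfp followed by a number, the name given to zinc finger proteins in the order in which they were catalogued. The deposited count table held 372 such genes. Members were selected on their level: 160 genes had a mean of at least 5 CPM (the raw count relative to the library's total count) over the 16 libraries. Zfp36 was left out, because it encodes tristetraprolin, a CCCH zinc finger protein that binds RNA and speeds the decay of cytokine messages. Of the remaining 212 genes below the cut-off, 32 had no count in any library. The same cut-off was passed by 8922 genes in all, so that 8762 other genes, Zfp36 among them, served for comparison.

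The classical C2H2 zinc finger is a short fold in which a pair of cysteines and a pair of histidines hold a zinc ion, and a row of such fingers reads a stretch of DNA. Many of these proteins also carry a KRAB box, which recruits Trim28 and, through it, the histone methyltransferase Setdb1, and which is best known for silencing retroviral elements. Others have no KRAB box and act as promoter-bound activators, as ubiquitin ligases or in ribosome assembly, so that a shared name says little about a shared role.

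The libraries came from bone marrow-derived macrophages of C57BL/6J mice, grown out of marrow with macrophage colony-stimulating factor and then moved to MEM. The 4 groups were untreated cells in complete MEM, untreated cells in MEM without serine, cells in complete MEM with lipopolysaccharide (LPS), and cells in MEM without serine with LPS. LPS, the endotoxin of Gram-negative bacterial envelopes, was given at 100 ng/mL for 4 h before RNA was prepared. Each group had 4 libraries, numbered 1 to 4, and the labels do not say whether the numbers stand for separate animals, so that each p-value reflects only the spread among libraries.

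Total counts ranged from 2871477 to 10043362 per library. The lowest total belonged to replicate 4 of the untreated cells without serine, which also had 12900 detected genes against 14000 to 16031 in the other 15 libraries, and 0.284% of its counts in the 160 genes against 0.426% to 0.494% in the other untreated libraries. The main counts and medians that it moves are given with and without it. Counts of groups without overlap, calls shared between media and splits of the members by feature or level include it. Xist had no count in replicate 1 of any group, where Y-linked genes had 1184 to 2391 counts, and the other 12 libraries had at most 1 Y-linked count, so that sex and replicate 1 cannot be told apart. Macrophage markers summed to 16474 to 28362 CPM and neutrophil markers to 7.86 to 104 CPM, mast cell and basophil markers reached at most 6.14 CPM, B and plasma cell markers reached at most 3.04 CPM, and T and NK cell markers at most 0.337 CPM. The summed stromal markers were at 1.01 to 20.0 CPM in untreated and 14.8 to 44.7 CPM in LPS libraries, and those of dendritic cells at 3.34 to 6.97 and 13.4 to 24.1 CPM. Their part in the changes below was not tested, and in bulk RNA fewer cells of a type and less RNA per cell cannot be told apart.

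Just inside the cut-off lay Zfp764 at 5.01, Zfp189 at 5.1 and Zfp658 at 5.21 mean CPM, and just outside lay Zfp946 at 4.96, Zfp157 at 4.89 and Zfp809 at 4.72. Zfp809, which brings Trim28 to the primer binding site of murine retroviruses, was thus not a member. The median member had a mean of 13.2 CPM, against 39.2 CPM for the other genes. Because the mean includes both conditions, 32 members passed although they were under the cut-off in both LPS groups, and 3 passed although they were under it in both untreated groups. Such members had to differ between conditions in raw CPM. Calls are on the TMM scale described below, on which an unchanged gene has a lower raw CPM with LPS. The numbers 32 and 3 therefore depend on the scale as well. Of the 32, 25 were called lower with LPS and serine, and all 3 of the others higher. The 32 include Zfp395, Zfp704 and Zfp266, and the 3 include Zfp811 and Zfp658, so that the selection bears on the direction of their changes. The counts over all 160 members below include these, and 116 members were at or over the cut-off in each of the 4 groups.

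Promoters were at hand from RefSeq (GRCm38.p6) for 131 of the 160 members, as 161 windows of 300 bases, 250 before to 50 after the start of transcription. Member promoters were rich in CpG, with a median GC content of 58.7% and a median observed-to-expected CpG ratio of 0.75, against 52.7% and 0.38 over all 32851 promoters of the table, which include those of genes with no count here. Short motifs were searched on both strands. The ETS core CCGGAA was found in 35.4% of member promoters and in 14.9% of all promoters, and the GC box GGGCGG in 59.6% and 35.7%. The YY1 site GCCATNTT was in 12.4% against 6.05%, the cyclic AMP response element TGACGTCA in 4.35% against 1.79% and the CCAAT box, searched as these letters, in 39.8% against 37.4%. The TATA box TATAAA was found in 6.21% of member promoters against 13.6%, and the NF-kB site in 3.73% against 4.51%. In medium with serine, the ETS core was in 35.8% of the 53 promoters of members that fell with LPS, in 12.5% of the 32 promoters of members that rose, and in 44.7% of the 76 promoters of members not called. A match describes the letters alone, and these shares were not tested.

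The promoters below belong to the 2 most negative and the 2 most positive named members with 1 listed start within 20 bases of the deposited gene, and are shown as examples from each direction. They run 5′ to 3′ on the strand of the gene and stop before the first exon. Capitals mark matches to the ETS core, the cyclic AMP response element, the CCAAT box and the GC box, which reads CCGCCC where it lies on the other strand. Zfp266, at chr9:20521420-20521669 on the minus strand of GRCm38.p6, fell with LPS:
Zfp266: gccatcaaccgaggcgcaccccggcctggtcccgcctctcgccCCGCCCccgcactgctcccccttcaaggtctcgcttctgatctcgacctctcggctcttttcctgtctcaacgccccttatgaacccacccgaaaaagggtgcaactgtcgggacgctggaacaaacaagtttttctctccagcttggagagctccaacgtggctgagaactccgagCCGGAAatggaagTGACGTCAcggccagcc
Zfp60, at chr7:27731159-27731388 on the plus strand, also fell, and holds none of the motifs searched:
Zfp60: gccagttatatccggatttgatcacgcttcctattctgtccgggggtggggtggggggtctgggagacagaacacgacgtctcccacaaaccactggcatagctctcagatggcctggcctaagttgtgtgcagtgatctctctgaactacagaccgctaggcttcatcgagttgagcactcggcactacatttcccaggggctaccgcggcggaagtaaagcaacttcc
Zfp281, at chr1:136624651-136624900 on the plus strand, rose:
Zfp281: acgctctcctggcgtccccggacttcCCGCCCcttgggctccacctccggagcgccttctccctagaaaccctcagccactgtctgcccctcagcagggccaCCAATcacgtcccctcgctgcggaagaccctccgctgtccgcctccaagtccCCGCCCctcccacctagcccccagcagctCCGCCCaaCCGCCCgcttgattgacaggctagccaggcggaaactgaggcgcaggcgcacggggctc
Zfp263, at chr16:3743849-3744092 on the plus strand, rose:
Zfp263: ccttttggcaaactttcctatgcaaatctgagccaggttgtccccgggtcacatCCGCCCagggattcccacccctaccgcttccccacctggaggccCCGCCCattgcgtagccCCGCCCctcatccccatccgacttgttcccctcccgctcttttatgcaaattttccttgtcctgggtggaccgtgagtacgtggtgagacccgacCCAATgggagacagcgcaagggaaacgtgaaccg
The Zfp266 sequence holds 1 ETS core, 30 bases before the start, 1 response element, 17 bases before it, and 1 GC box, 207 bases before it. Zfp281 has 4 GC boxes and Zfp263 has 3, with 1 CCAAT box each.

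In medium with serine, 56 of the 160 members (35%) fell and 26 (16.2%) rose with LPS, and 78 did not pass the test. Of those that fell, 25 had passed the cut-off through their untreated level alone, and among the 116 members over it in each group 23.3% fell and 19.8% rose. Changes are on the log2 scale with their SE, as fitted by edgeR's quasi-likelihood method, and were called at a Benjamini-Hochberg adjusted p under 0.05 over 11004 genes. Among all genes tested, 28.2% were called lower and 27.6% higher, and among the 8762 other genes at the cut-off 26.3% and 30.6%. The median change of the members was -0.25, against 0.04 for the other genes. Those that fell changed by a median of -0.93, and those that rose by a median of 0.86. The 4 untreated and 4 LPS libraries did not overlap for 62 members that were lower with LPS (38.8%) and for 26 that were higher (16.2%), where the other genes had 30% and 34.7% and all genes tested 30.9% and 30.7%. The main fit shares its estimate of spread over all 4 groups. A fit of these 2 groups alone leaves out replicate 4 of the untreated cells without serine. It called 71 members lower (44.4%) and 30 higher (18.8%), beside 32.7% and 36.5% of the other genes, with medians of -0.26 and 0.02.

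Medium without serine gave the same lean, with 55 members lower (34.4%) and 28 higher (17.5%) with LPS, beside 29.7% and 27.1% of all genes tested and 28.1% and 30.1% of the other genes at the cut-off. The median was -0.23 for the members and -0.05 for the other genes. Over the 4 sets of same-numbered libraries the difference of these medians had an SD of 0.18, and of 0.04 in medium with serine. The groups did not overlap for 40 members that were lower (25%) and 25 that were higher (15.6%), beside 22.4% and 25.3% of all genes tested and 21.5% and 28.1% of the other genes. Without replicate 4 of the untreated cells, 73 members were called lower and 29 higher, and 30.9% and 35.2% of the other genes were, with medians of -0.29 and 0.03. A fit of these 2 groups alone, with that replicate, called 45 members lower (28.1%) and 21 higher (13.1%), beside 22% and 25.2% of the other genes.

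No member was called in opposite directions in the 2 media. The 45 members lower in both media made up 80.4% of those lower with serine and 81.8% of those lower without it, and the 24 higher in both made up 92.3% and 85.7%. The 2 sets of changes had a Pearson r of 0.975 across the 160 members, given as a description, since the media share replicate numbers.

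**Figure D1:**
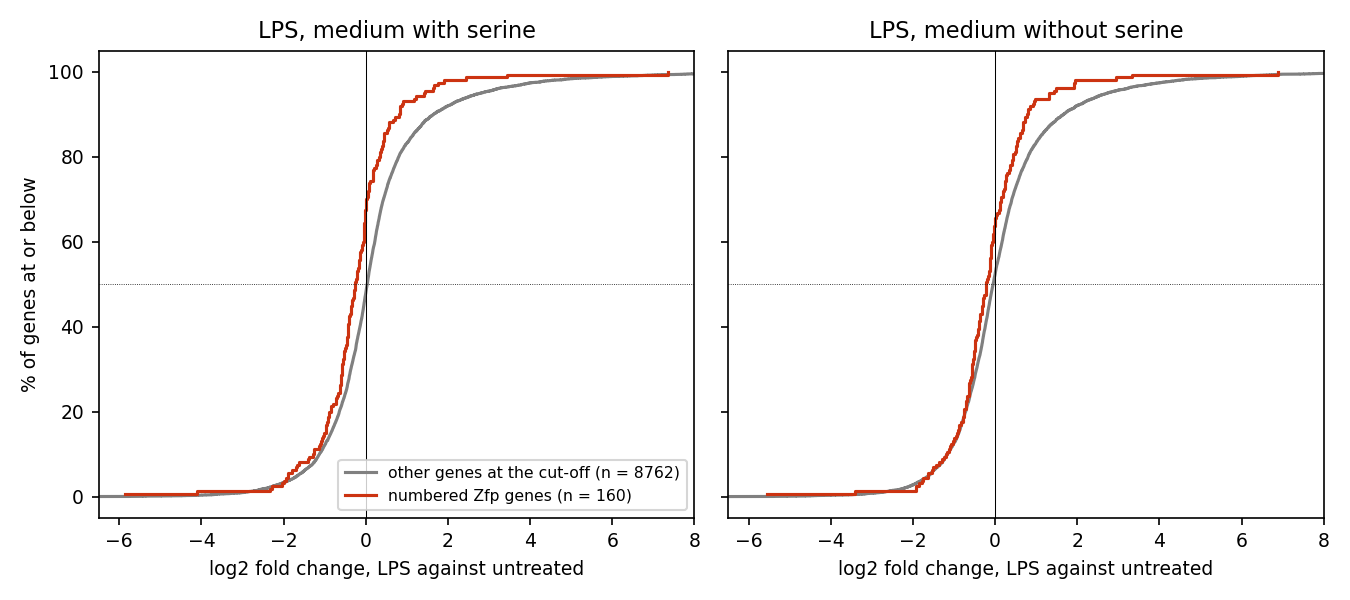
Cumulative distributions of the log2 fold change with LPS (x axis) as percent of genes (y axis) for the 160 numbered Zfp genes (red) and the 8762 other genes at the cut-off (grey), in medium with serine (left) and without it (right). The red curve crosses 50% at -0.25 and the grey one at 0.04 with serine, and they cross at -0.23 and -0.05 without.

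The scale of these changes depended on how libraries were made comparable. TMM factors were 1.03 to 1.27 in untreated and 0.781 to 0.861 in LPS libraries, and scaling to total counts without them moved the median of all genes by -0.62 with serine and -0.57 without. On that scale 117 members were lower and 12 higher with serine (73.1% and 7.5%), against 57.9% and 16.1% of the other genes, and 110 were lower and 11 higher without serine (68.8% and 6.88%), against 59.4% and 16.4%. The members' summed level was 3571 ± 168 CPM untreated and 3985 ± 229 with LPS (SD, n = 4, with serine) on the TMM scale, and 4484 ± 228 and 3264 ± 204 on the scale of total counts. The direction of the sum therefore changed with the scaling. The members' median was below that of the other genes on both scales, at -0.87 against -0.58 by total counts.

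The share of members that fell followed their level. Of 60 members with a mean of 5 to 10 CPM, 29 fell with LPS and serine (48.3%), beside 39.8% of 1162 other genes in the same class. In the classes from 10 to 20, from 20 to 50 and over 50 CPM, 32%, 24.2% and 17.6% of members fell, beside 36.1%, 27.2% and 17.4% of the other genes. The share that rose was 11.7% and 6% in the 2 lower classes, beside 14.5% and 18.1% of the other genes, and 30.3% and 35.3% in the 2 upper classes, beside 25.1% and 44.2%. Among the 116 members at or over the cut-off in each group, 27 fell (23.3%) and 23 rose (19.8%), against 22% and 32.3% of 7635 other genes chosen in the same way, with medians of -0.06 and 0.09. In medium without serine 26 of them fell (22.4%) and 25 rose (21.6%), against 23.7% and 31.7%. The level classes and this restriction were chosen after the values had been seen, and no test between members and other genes was made.

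**Figure D2:**
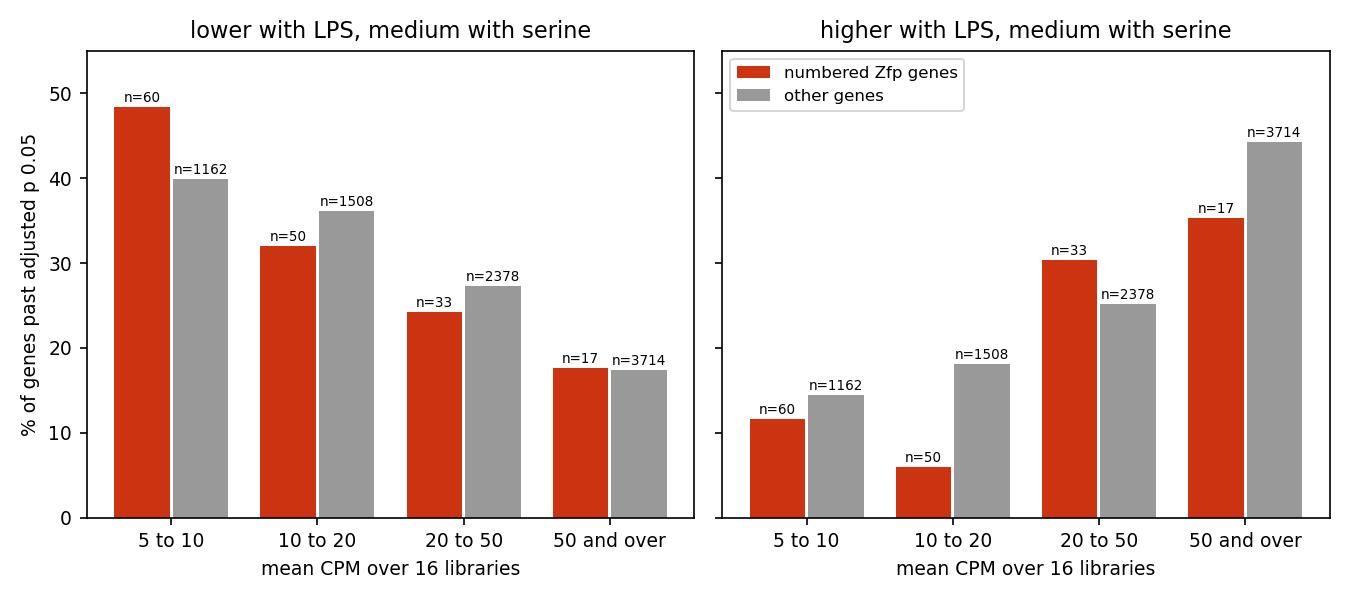
Percent of genes called lower (left) or higher (right) with LPS in medium with serine, by mean CPM over the 16 libraries (x axis), for numbered Zfp genes (red bars) and other genes (grey bars), with the number of genes above each bar. The share that fell drops from 48.3% to 17.6% of members and from 39.8% to 17.4% of other genes as the level rises.

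Zfp395 and Zfp704 had the most negative changes in both media, and both had passed the cut-off through their untreated level alone. Zfp395 (ENSMUSG00000034522, chromosome 14, 65358676 to 65398930, plus strand of mm10, as are all gene positions) is the mouse form of human ZNF395, known as a papillomavirus binding factor. Its level in replicates 1 to 4 was 29.9, 27.7, 30.7 and 34.4 CPM in untreated cells with serine and 0.447, 0.518, 0.847 and 0.202 CPM with LPS. In medium without serine it was 25.7, 24.2, 30.4 and 20.6 CPM untreated and 0.761, 0.347, 0.748 and 0.195 CPM with LPS. All 8 LPS libraries were far below all 8 untreated ones. The counts behind this were 1058 untreated and 12 with LPS in the 4 libraries with serine, a level 59.2-fold lower (95% exact counting interval 33.7 to 115), and 866 and 12 without serine, 49.2-fold lower (28 to 95.7). The intervals cover counting error only.

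Zfp704 (chromosome 3, 9427020 to 9610085, minus strand), whose protein has 1 match to the finger pattern, stood at 64.6, 60.4, 66.9 and 70.6 CPM in untreated cells with serine and at 4.61, 4.84, 2.37 and 3.23 CPM with LPS. Without serine it stood at 74.3, 62.4, 72.6 and 41.5 CPM untreated and 7.15, 4.68, 7.1 and 4.68 CPM with LPS. The untreated and LPS libraries did not overlap in either medium. It fell by 4.11 ± 0.23 with serine (edgeR adjusted p = 2.66e-10) and by 3.41 ± 0.22 without (1.44e-09). Of its exonic bases, 16.6% overlap C030034L19Rik, and the kit leaves reads without strand, so that those of the pair are not told apart there.

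Zfp652, whose product partners with the corepressor Cbfa2t3, had 91.4, 78.6, 81.1 and 92.1 CPM untreated and 13.4, 19.3, 15.1 and 20.2 CPM with LPS and serine, a change of -2.34 ± 0.20 (edgeR adjusted p = 3.98e-08). Without serine it had 88.9, 81.1, 80.3 and 42.5 CPM untreated and 16.6, 19.2, 18.7 and 23.2 CPM with LPS, a change of -1.93 ± 0.20. In both media every LPS library was below every untreated one, and 20.0% of its exonic bases overlap Abi3, Phospho1 or Zfp652os.

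Zfp266, a KRAB gene whose promoter is printed above, stood at 19.6, 21.2, 20.0 and 22.4 CPM untreated and at 4.76, 4.49, 4.23 and 3.43 CPM with LPS and serine, a change of -2.28 ± 0.16 (edgeR adjusted p = 2.28e-09). Its levels without serine were 20.3, 19.2, 19.1 and 15.5 CPM untreated and 5.48, 4.85, 6.73 and 7.21 CPM with LPS, a change of -1.63 ± 0.15. The untreated and LPS libraries were again separate, and the 4 LPS libraries without serine were each above the LPS libraries with it.

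The 8 most negative changes with serine also included Zfp60 (-2.04 ± 0.30), Zfp608 (-2.0 ± 0.32), Zfp953 (-1.94 ± 0.21) and Zfp472 (-1.89 ± 0.20). Proteins of Zfp60 and Zfp953 matched the KRAB-like pattern. Zfp608, a relative of Zfp609, had 19.6 CPM in replicate 1 of the untreated cells with serine and 10.1 to 10.4 CPM in the other 3, and all 4 were above the 2.94 to 3.43 CPM of the LPS libraries. Without serine the KRAB gene Zfp369 (-1.92 ± 0.27), Zfp60 (-1.84 ± 0.31) and Zfp251 (-1.77 ± 0.23) came next after Zfp652. All of these passed the test. In the LPS libraries with serine, Zfp953 was at 2.03 to 3.28 CPM and Zfp472 at 1.69 to 2.68 CPM. Raw CPM, on which the cut-off was set, is lower still in LPS libraries. Zfp608, Zfp953 and Zfp472 were thus under the cut-off in that group and passed it through higher levels elsewhere. The selection therefore bears on the direction of their changes as well.

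**Figure D3:**
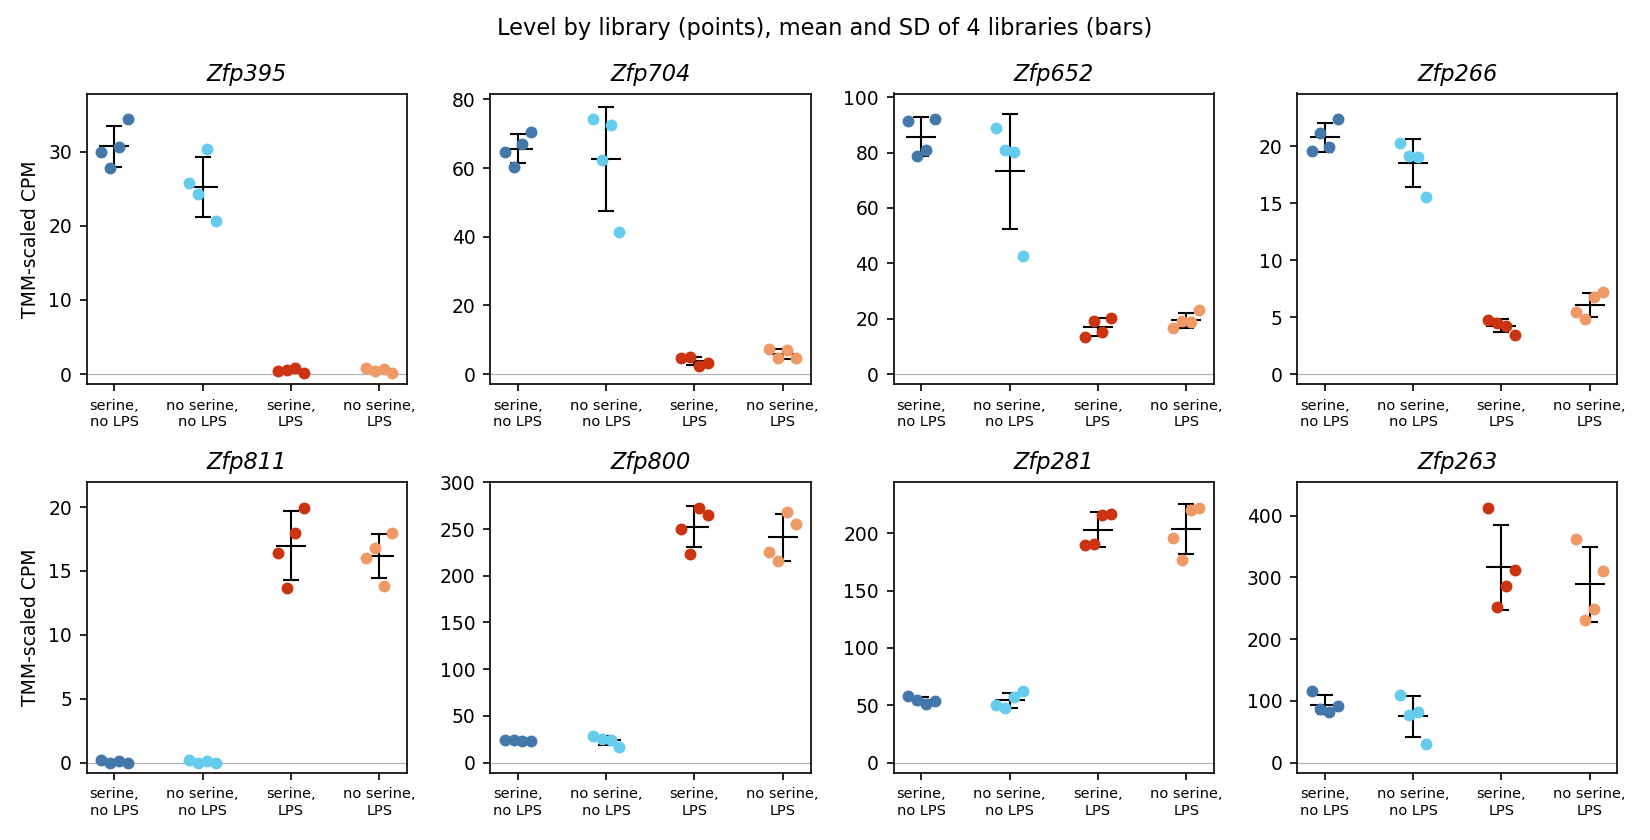
TMM-scaled CPM (y axes, linear) of 8 members in the 4 groups (x axis). Points are libraries 1 to 4 from left to right, and bars are the mean and SD of 4 libraries. The 4 genes of the upper row are lower in all 8 LPS libraries than in any untreated library, and the 4 of the lower row are higher in all 8, with Zfp811 near 0 in the untreated cells.

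Zfp811 had the most positive change, and had passed the cut-off through its LPS level alone. This KRAB gene (ENSMUSG00000055202, chromosome 17, 32797406 to 32800938, minus strand), whose protein has 14 finger patterns, had 0.202, 0, 0.126 and 0 CPM in untreated cells with serine and 16.4, 13.6, 18 and 20.0 CPM with LPS. In medium without serine it had 0.239, 0, 0.128 and 0 CPM untreated and 16, 16.8, 13.8 and 17.9 CPM with LPS. It was at or near 0 in every untreated library and well above it in every LPS library. In counts this was 3 against 394 with serine, a ratio of 196 with a 95% exact counting interval of 66.5 to 953, and 4 against 368 without serine, a ratio of 135 (52.2 to 497). Of its 75-base stretches, 0% occurred in another annotated gene.

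Zfp800 (chromosome 6, 28239931 to 28398005, minus strand), with 7 finger patterns and no KRAB match, rose from 24.3, 23.6, 23 and 22.7 to 249.6, 223, 273 and 265 CPM with LPS and serine, a change of 3.43 ± 0.15 (edgeR adjusted p = 1.54e-11). Without serine it rose from 28.8, 25.1, 24.5 and 16.2 to 225, 216, 269 and 256 CPM, a change of 3.33 ± 0.15. The groups were far apart in both media.

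Zfp281 binds GC-rich DNA and is known from pluripotent cells. It rose from 57.8, 54.2, 51 and 53.7 to 189.9, 191, 216 and 217 CPM with serine, a change of 1.91 ± 0.12 (edgeR adjusted p = 5.36e-10), and by 1.91 ± 0.12 without it. Its close relative Zfp148 was at 68.6, 70.7, 70.6 and 67.5 CPM untreated and 61.3, 58.2, 65.9 and 66.5 CPM with LPS and serine. Each of these LPS libraries was below each untreated one, but the change of -0.14 ± 0.11 did not pass (adjusted p = 0.287). By total counts, a scale that moved the median of all genes by -0.62, Zfp148 passed as lower (-0.76, edgeR adjusted p = 1.41e-04).

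Zfp263 rose from 116, 86.3, 81.5 and 91.6 to 413, 252, 287 and 312 CPM with serine, a change of 1.75 ± 0.28 (edgeR adjusted p = 5.34e-05), and by 1.93 ± 0.28 without it. Replicate 1 was the highest library of each group. The remaining members with the largest rises were Zfp658 (2.43 ± 0.23 with serine, 2.94 ± 0.24 without), Zfp719 (1.66 ± 0.20 with serine) and Zfp319 (1.94 ± 0.18 without serine). Zfp658 and Zfp719, both KRAB genes on chromosome 7, lie on the plus strand with 4148 bases between them (43562256 to 43575461 and 43579610 to 43593235). Zfp658 was at 0.974 to 2.05 CPM in untreated and 7.74 to 11.7 CPM in LPS libraries with serine, and Zfp719 at 3.34 to 4.78 and 11.2 to 14.3 CPM, with no overlap for either.

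**Figure D4:**
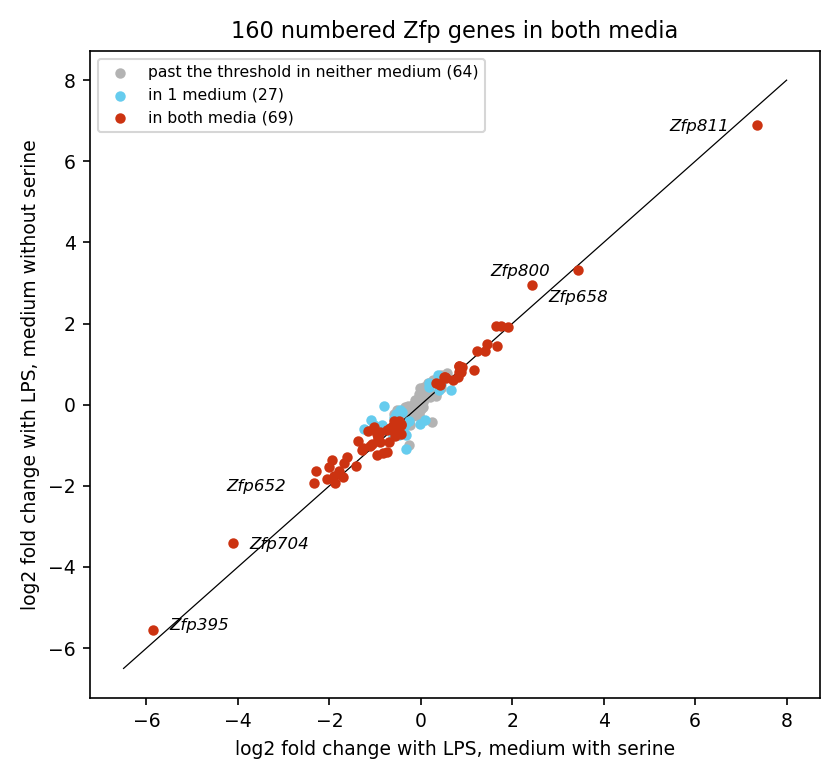
Log2 fold change with LPS in medium with serine (x axis) against medium without it (y axis) for the 160 numbered Zfp genes, 1 point per gene. The 69 genes called in both media (red), the 27 called in 1 medium (light blue) and the 64 called in neither (grey) lie along the line of equality (black), from Zfp395 at -5.86 to Zfp811 at 7.36.

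Members with well known cellular roles moved in both directions or did not pass. Per kilobase of deposited gene length, the highest levels over all libraries were those of Zfp622, a factor in the maturation of the large ribosomal subunit (19.9 CPM per kilobase), Zfp598, the ubiquitin ligase that marks collided ribosomes (14), Zfp706 (13.7), Zfp319 (13.5), Zfp281 (13.1) and Zfp710 (12.1). Zfp598 rose by 0.84 ± 0.23 with serine (edgeR adjusted p = 0.0056), with 91.1 CPM in replicate 1 and 39.1 to 54.6 CPM in the other LPS libraries, and it did not pass when libraries were scaled to total counts (0.23, adjusted p = 0.421). Zfp622 had -0.03 ± 0.10 and did not pass, but by total counts it passed as lower (-0.65, edgeR adjusted p = 2.31e-05). Zfp706 fell by 0.43 ± 0.14 (adjusted p = 0.0164), a call lost without LPS replicate 2 in serine medium (adjusted p = 0.0573). Zfp710 was called higher with serine (0.51 ± 0.17, adjusted p = 0.0148), but by total counts its value was -0.11.

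Zfp207, which helps to load spindle checkpoint proteins, rose by 0.91 ± 0.09 with serine (edgeR adjusted p = 4.01e-07), Zfp131 by 1.23 ± 0.17 (1.27e-05), and Zfp143, an activator bound at many promoters, by 0.83 ± 0.12 (2.49e-05). By total counts Zfp143 had 0.21 and did not pass (adjusted p = 0.209). Zfp318, known for control of IgD splicing in B cells, fell by 0.68 ± 0.20 (adjusted p = 0.00693), and Zfp703, a corepressor, by 0.53 ± 0.14 (0.00477). Zfp91, a ubiquitin ligase of the NF-kB kinase NIK, had 0.05 ± 0.09, Zfp384 0.01 ± 0.13, Zfp217 -0.04 ± 0.22 and Zfp609 -0.29 ± 0.28, and none of them passed in the unpaired model of all groups. By total counts each of them passed as lower (-0.57, -0.60, -0.66 and -0.90, edgeR adjusted p = 3.10e-04, 0.00443, 0.0239 and 0.0159). With the block and without untreated replicate 4 of the serine-free medium, Zfp609 passed as lower at a like value (-0.29, edgeR adjusted p = 0.0115). Zfp106 (-0.34 ± 0.18), Zfp335 (0.44 ± 0.31) and Zfp638 (-0.35 ± 0.21) did not pass either in the unpaired model (adjusted p = 0.124, 0.245 and 0.17). In a fit of the 2 groups compared alone all 3 passed at like values (edgeR adjusted p = 0.00152, 0.0117 and 0.0459), as they did with the block and without that library (2.78e-05, 0.00185 and 0.00134). Zfp638, which takes part in silencing unintegrated retroviral DNA, also passed as lower with the block and all libraries (adjusted p = 0.0118). By total counts Zfp106 (-0.95, edgeR adjusted p = 9.53e-04) and Zfp638 (-0.96, 0.0016) passed as lower, and Zfp335 (-0.17, 0.652) did not pass. Of the exonic bases of Zfp106, 26.1% overlap Gm26899, and 28.3% of those of Zfp335 overlap Pcif1 or Zfp335os, with the same limit as for Zfp704.

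The encoded proteins were read from a coding transcript of each member in GENCODE M21, on the same build. The C2H2 finger pattern occurred at least 1 time in 156 of the 160 proteins, with a median of 10 and a highest number of 37, in Zfp142. The 4 proteins without it were those of Zfp330, Zfp503, Zfp703 and Zfp839, named here because their number was 0. A KRAB-like pattern was found in 58 members, and such a search can miss diverged domains.

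Over all 160 members, the share that fell was larger among those with a KRAB-like pattern, which also had lower levels. Of these 58, 27 fell (46.6%) and 7 rose (12.1%) with LPS and serine, with a median of -0.44, and of the other 102, 29 fell (28.4%) and 19 rose (18.6%), with a median of -0.15. Without serine 23 of the 58 fell and 8 rose (39.7% and 13.8%), beside 32 and 20 of the 102 (31.4% and 19.6%). Of all genes tested, 28.2% were lower and 27.6% higher with serine, and 29.7% and 27.1% without it. The median level was 8.68 CPM for the KRAB members and 18.7 CPM for the others. Among members at or over the cut-off in each group, 10 of 32 KRAB members fell (31.25%) and 4 rose (12.5%) with serine. Of 84 such members without the pattern, 17 fell (20.2%) and 19 rose (22.6%), and of 7635 other genes 22% and 32.3%. Without serine the order of the falls turned. There 6 KRAB members fell (18.75%) and 5 rose (15.6%), beside 20 and 20 of the 84 (23.8% each) and 23.7% and 31.7% of the other genes. No test between these subsets was made, and the part of level in the difference was not tested. By number of fingers, 32.9% of the 82 members with 10 or more fell with serine, 32.6% of the 46 with 5 to 9 and 42.9% of the 28 with 1 to 4.

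**Figure D5:**
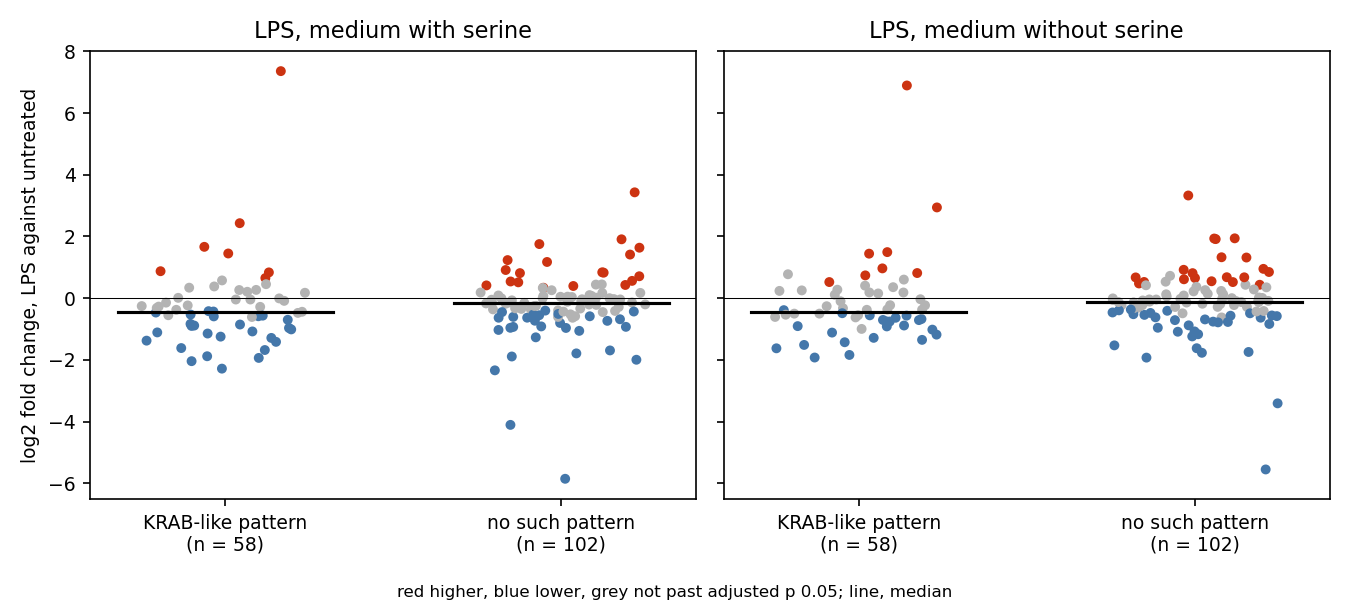
Log2 fold change with LPS (y axis) of the 58 members with a KRAB-like pattern and the 102 without it (x axis), in medium with serine (left) and without it (right). Points are genes, red where called higher, blue where called lower and grey where not called, and black lines are medians, at -0.44 against -0.15 with serine.

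Zinc finger genes often lie in clusters, and 38 members were on chromosome 7 and 21 on chromosome 17. Of the 38, 12 fell (31.6%) and 9 rose (23.7%) with LPS and serine, and of the 21, 8 fell (38.1%) and 4 rose (19%), beside 35% and 16.2% of all members and 28.2% and 27.6% of all genes tested. In 23 pairs of neighbouring members no more than 20000 bases lay between the genes. Both genes fell in 6 of these pairs and both rose in 3, 1 of the pair was called in 7, neither in 5, and the calls were opposite in 2. The opposite pairs were Zfp472 (-1.89) with Zfp952 (0.43 ± 0.16, edgeR adjusted p = 0.0319), and Zfp282 (-0.63 ± 0.18, 0.00743) with Zfp212 (0.71 ± 0.13, 2.57e-04). Neighbours were examined after the values had been seen, and their likeness was not tested.

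Some closely placed members had like values and others did not. Zfp12 and Zfp316, which face each other on chromosome 5 with 862 bases between them, fell by 1.62 ± 0.21 and 1.68 ± 0.19 with serine. Zfp266 lies 2321 bases from Zfp426, which fell by 0.86 ± 0.25 with serine (edgeR adjusted p = 0.00699) and did not pass without it (-0.50 ± 0.24, 0.0905). Zfp811 had Zfp871 on one side, at 0.83 ± 0.34 (adjusted p = 0.0492), and Zfp799 on the other, at 0.01 ± 0.18 (adjusted p = 0.972). Zfp944 and Zfp758 are divided by 52 bases and point away from each other on chromosome 17. Zfp944 went from 7.1 ± 1.29 to 3.2 ± 0.644 CPM (SD, n = 4) with LPS and serine, a change of -1.15 ± 0.24 (edgeR adjusted p = 5.95e-04). Zfp758 had 10.1 ± 0.869 CPM untreated and 11.6 ± 2.34 CPM with LPS, a change of 0.21 ± 0.16 that did not pass (edgeR adjusted p = 0.301). The difference between the 2 genes was not tested.

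Shared sequences and overlapping genes limit what some of these counts mean. In 37 members at least 5% of the 75-base stretches of 1 transcript, that with the longest coding sequence, also occurred in another gene on either strand. In 1 of them, Zfp991, at least 50% did. Such stretches include those of genes that overlap at the same place, as for Zfp704 and C030034L19Rik (17.9%). Of these 37 members, 11 fell (29.7%) and 2 rose (5.41%) with serine, and of the other 123, 45 fell (36.6%) and 24 rose (19.5%). Among all genes tested 28.2% were lower and 27.6% higher. In 16 members over 10% of exonic bases overlapped another gene.

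Withdrawal of serine called no member in edgeR's unpaired model. In untreated cells 0 of 160 members passed, as did 0% of all genes tested. An unadjusted p under 0.05 was found for 5 of the 160, all higher without serine, and for 548 of 11004 genes tested, 436 of them higher. DESeq2 also called 0, with 7 at an unadjusted p under 0.05. The median change was -0.01, and 0.05 without untreated replicate 4 of the serine-free medium, beside 0.01 for the other genes. The 2 groups did not overlap for 2 members that were higher without serine (1.25%), beside 1.46% of all genes tested and 1.59% of the other genes, and for 1 that was lower (0.625%), beside 1.32% and 1.34%.

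The smallest p in untreated cells belonged to Zfp719 (0.49 ± 0.20), Zfp830, a splicing-associated protein (0.33 ± 0.14), Zfp358 (0.38 ± 0.16) and Zfp622 (0.22 ± 0.10), each with an edgeR adjusted p of 0.816. Zfp719 was at 3.84, 4.1, 4.78 and 3.34 CPM with serine and 6.61, 6.33, 5.39 and 3.37 CPM without it. The groups overlapped, though the library without serine was the higher one under each of the 4 numbers. Zfp622 was at 50.7, 52.2, 54.9 and 54.6 CPM with serine and 55.5, 60.3, 59 and 73.9 CPM without it, with no overlap, its highest value being that of replicate 4.

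In LPS-treated cells 0 of 160 members passed for withdrawal, beside 0.0545% of all genes tested called higher and 0.00909% called lower (0.0685% and 0.0114% of the other genes). Here 7 of the 160 members had an unadjusted p under 0.05, 6 of them higher without serine, beside 676 of 11004 genes tested, 410 of them higher. DESeq2 called 0 members, with 8 at that level. The median was 0.07 for the members and 0.00 for the other genes. In all, 7 members were higher without serine with no overlap (4.38%), beside 4.27% of all genes tested and 4.88% of the other genes, and 1 was lower (0.625% beside 3.31% and 3.73%).

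Zfp266 had the smallest p in LPS-treated cells, with 0.51 ± 0.17 (edgeR adjusted p = 0.446). Zfp410, known for its control of the chromatin remodeller gene Chd4, was at 19.8, 16.8, 16.8 and 17.9 CPM with serine and 25.1, 23.6, 20.9 and 20.1 CPM without it, with no overlap (0.33 ± 0.12, edgeR adjusted p = 0.504). The KRAB gene Zfp709 was at 5.36, 3.8, 3.73 and 4.23 CPM with serine and 7.15, 5.37, 5.98 and 7.02 CPM without it, also with no overlap (0.57 ± 0.21, edgeR adjusted p = 0.553). Zfp704 had 0.64 ± 0.26 (0.614). Each of the 4 was thus higher without serine by its fitted value, and none passed.

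Replicate numbers paired the samples, and a block for them bears on the withdrawal results. With the block and all 16 libraries, 0 members passed in either withdrawal, the smallest edgeR adjusted p being 0.202 for Zfp944 in LPS-treated cells. With the block and without untreated replicate 4 of the serine-free medium, 6 members were higher without serine in LPS-treated cells (3.75%), and in that fit 6% of the other genes were called higher and 4.07% lower. They were Zfp655 (0.42 ± 0.07, edgeR adjusted p = 6.20e-04), Zfp397 (0.0225), Zfp740 (0.0231), Zfp410 (0.0279), Zfp709 (0.0473) and Zfp944 (0.0489). Zfp655 was also the 1 member called in untreated cells (0.38 ± 0.07, adjusted p = 0.0131). The share of members called was below that of the other genes in the same fit.

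The test of a difference in the LPS change between the media called no member. It had 0 calls among all genes tested (0%). It gave 4 of the 160 members an unadjusted p under 0.05 (5 by DESeq2, which called 0), beside 253 of 11004 genes tested. Its median was 0.08 for the members and 0.00 for the other genes, and -0.0008 for the members without untreated replicate 4 of the serine-free medium. Zfp266 (0.66 ± 0.22), Zfp653 (-0.69 ± 0.27), Zfp830 (-0.47 ± 0.20) and Zfp704 (0.70 ± 0.32) had the smallest p, each with an edgeR adjusted p of 0.95. The positive values of Zfp266 and Zfp704 describe a smaller fall with LPS when serine was absent. They share libraries with the withdrawal values in LPS-treated cells.

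The proteins through which KRAB members act gave mixed values. Of 21 tested genes of this machinery 10 fell and 6 rose with LPS and serine (median -0.30), and 9 fell and 5 rose without serine (median -0.20), beside 28.2% lower and 27.6% higher among all genes tested with serine and 29.7% and 27.1% without. Trim28, the corepressor that binds KRAB boxes, fell from 126 ± 10.5 to 102 ± 7.8 CPM with serine (SD, n = 4), a change of -0.30 ± 0.10 (edgeR adjusted p = 0.0179). Setdb1 fell from 40.5 ± 3.39 to 19.8 ± 1.34 CPM (-1.03 ± 0.21, edgeR adjusted p = 4.45e-04). Dnmt1, the maintenance DNA methyltransferase, had the most negative change (-2.1 ± 0.26) and Trim24 came next (-1.24 ± 0.17), while Morc3 (1.62 ± 0.17) and the deacetylase Hdac1 (1.14 ± 0.20) had the most positive ones.

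Other families of zinc finger genes are given beside the same shares of all genes tested, whose median was -0.03 with serine and -0.12 without, and no test between families was made. Of 15 tested numbered Zkscan and Zscan genes, many of which carry a SCAN domain beside their fingers, 8 fell and 0 rose with serine (median -0.76) and 7 fell and 1 rose without (median -0.66), led by Zscan2 (-1.46 ± 0.41) and Zkscan5 (-1.16 ± 0.21). Of 32 numbered Zbtb genes 9 fell and 6 rose with serine (median -0.16) and 8 fell and 7 rose without (median -0.03), from Zbtb38 (-1.85 ± 0.12) and Zbtb4 (-1.58 ± 0.14) to Zbtb5 (1.81 ± 0.17) and Zbtb32 (5.73 ± 0.61), the last at 0.0253 ± 0.0505 CPM untreated. Of 15 numbered Zc3h genes, which have CCCH fingers like Zfp36, 2 fell (Zc3h8, -2.35 ± 0.50, and Zc3h6, -1.25 ± 0.32) and 4 rose with serine (median 0.23) and 2 fell and 7 rose without (median 0.42), led by Zc3h12c (3.85 ± 0.16) and Zc3h12a (3.15 ± 0.19), the latter the cytokine message decay factor Regnase-1. Zfp36 itself rose from 164 ± 36.7 to 666 ± 16.9 CPM with serine (SD, n = 4), a change of 2.02 ± 0.15 (edgeR adjusted p = 9.33e-09). No gene of these lists was called for withdrawal of serine in edgeR's unpaired model.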

How the data were processed

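RNA-seq of 16 macrophage libraries was analysed from counts per Ensembl gene, which the authors deposited as whole numbers in 43430 rows. The submitters' processing notes name Trimmomatic 0.33, STAR, SAMtools, HTSeq, edgeR and mm10, without their roles. Symbols were found for 42462 rows in a gene table. Another 24 per-sample columns were used in no step. Members, gene lists and level classes were chosen with earlier results of these data known.

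The analysis used R 4.3.3 and edgeR 4.0.16 with limma 3.58.1. The default filter on low counts left 11004 genes, all 160 members among them. Libraries were scaled by TMM, and the quasi-likelihood fit, in its robust form, took 4 group means over all 16 libraries. Tests were two-sided, and Benjamini-Hochberg adjustment covered 11004 genes in each of 5 comparisons, with a threshold of 0.05. The biological coefficient of variation was 20.9%. Levels are TMM-scaled CPM without a prior count. The scripts were tested on simulated data. Alternatives were another scaling, DESeq2 1.42.0, no filter, fewer groups in the fit, a replicate block, other cut-offs and leaving out each library.

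The replicate numbers, taken from the titles, were checked as a pairing. Same-numbered libraries deviated together from their group means across genes (log2 CPM with a prior count of 2), with correlations of 0.217 to 0.415 (LPS with serine), 0.125 to 0.397 (LPS without serine), 0.185 to 0.609 (withdrawal, untreated) and 0.333 to 0.66 (withdrawal with LPS). Differently numbered libraries had -0.271 to 0.122, -0.251 to 0.0951, -0.317 to 0.079 and -0.373 to 0.141 in the same order. In each comparison the lowest same-numbered value was over the highest of these, so the numbers were taken to pair the samples. The main calls come from the fit without a block. At total counts of 2871477 to 10043362, members near the cut-off rest on few reads per library, and their errors are wide.

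Genes were named by a rule: in each LPS comparison the 8 members with the most negative and the 6 with the most positive changes past the threshold, the 4 with the smallest p in each other comparison, the 6 highest per kilobase of deposited length, the 3 nearest the cut-off on each side, and a list of well studied members. Neighbours, members called under the block and the members without a finger pattern were named outside it, after their values were seen. Shared 75-base stretches, overlaps and proteins come from GENCODE M21, and promoters from RefSeq.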

Additional observations from a re-analysis of the deposited data

Results flagged for a closer look

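In 13 of 168 groups of 4 libraries, over the levels of the 41 named members and the members' share of all counts, 1 library lay far from the other 3, with a gap to the nearest over the whole range above Dixon's 95% critical value. Chance flags about 1 in 20 such groups.

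Of these, 5 concerned replicate 4 of the untreated cells without serine, the library with the lowest total. It had 66.1 CPM of Zfp106 against 140 to 153 CPM in the rest of its group, 11.5 CPM of Zfp319 against 25.7 to 28.5, 3.04 CPM of Zfp335 against 19.9 to 21.0, 8.09 CPM of Zfp609 against 32.8 to 33.9 and 3.37 CPM of Zfp764 against 6.04 to 6.28. It was the low library each time.

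In replicate 1, where sex differs from the other replicates, untreated cells with serine had 26.4 CPM of Zfp131 against 18.6 to 19.8 and 19.6 CPM of Zfp608 against 10.1 to 10.4. LPS-treated cells without serine had 76.9 CPM of Zfp638 against 42.7 to 44.5 and 20.2 CPM of Zfp719 against 13.4 to 14. It was the high library each time.

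The remaining 4 were single libraries of LPS-treated cells. Zfp319 stood at 96.7 CPM in replicate 2 without serine against 87.5 to 87.9. With serine, Zfp472 stood at 1.69 CPM in replicate 3 against 2.59 to 2.68, Zfp830 at 12.3 CPM in replicate 4 against 15.8 to 16.4, and Zfp953 at 3.28 CPM in replicate 2 against 2.03 to 2.23.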

How the results depend on the processing

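Scaling to total counts gave 12 members higher and 117 lower with LPS and serine and 11 higher and 110 lower without serine, with medians of -0.87 and -0.80. It also turned Zfp335 (-0.17), Zfp384 (-0.60), Zfp710 (-0.11) and Zfp91 (-0.57) with serine, and Zfp217 (-0.34), Zfp384 (-0.50) and Zfp91 (-0.52) without. On that scale Zfp91, Zfp106, Zfp148, Zfp189, Zfp384, Zfp622 and Zfp638 newly passed as lower in both media. Zfp217 and Zfp609 did so with serine, and Zfp703 without it. Zfp143, Zfp598 and Zfp710 lost their calls as higher in both media. Without a filter on low counts 43 members were lower and 25 higher with serine (26.9% and 15.6%), beside 21.1% and 30.8% of the other genes. The median was -0.17. Without serine 38 were lower and 30 higher (23.8% and 18.8%), beside 21.7% and 30.1%. In that fit Zfp706 lost its call in both media (edgeR adjusted p = 0.0879 and 0.0634), and Zfp318 lost it without serine (0.0571). There Zfp189 (0.037), Zfp217 (0.041) and Zfp622 (0.046) with serine and Zfp106 (0.026), Zfp148 (0.074) and Zfp609 (0.047) without it turned. DESeq2's size factors turned Zfp148 (0.012) and its test Zfp609 (0.014), both without serine. A cut-off of 1 mean CPM gave 118 and 108 members lower with and without serine (45.9% and 42%), beside 27.7% and 29.3% of the other genes. The medians there were -0.53 and -0.48, with differences from the other genes' median of -0.51 and -0.37. A cut-off of 10 gave 27 and 26 members lower (27% and 26%, beside 24.2% and 25.9% of the other genes) and, with serine, a median of -0.10 and a difference of -0.19. Genes over the cut-off in each group, chosen after seeing the data, gave 27 and 26 lower (23.3% and 22.4%, beside 22% and 23.7%). With serine they had a median of -0.061 and a difference of -0.15. Members sharing few 75-base stretches, also chosen after seeing the data, gave 45 and 42 lower (36.6% and 34.1%, beside 26.3% and 28.1% of the other genes).

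With the replicate block 27 members were higher and 65 lower with LPS and serine (16.9% and 40.6%), beside 32.8% and 28.7% of the other genes. Without serine 35 and 60 were (21.9% and 37.5%), beside 32.5% and 29.8%. Zfp148 (0.0016) and Zfp609 (0.028) turned without serine, Zfp638 passed in both media (edgeR adjusted p = 0.0118 and 0.0353) and Zfp335 passed without serine (0.0369), and no other call of a named member changed. The block without untreated replicate 4 of the serine-free medium gave 32 higher and 78 lower with LPS and serine (20% and 48.8%), beside 41% and 36% of the other genes. Without serine it gave 35 and 81 (21.9% and 50.6%), beside 39.3% and 34.7%. In this fit Zfp106, Zfp335, Zfp609 and Zfp638 passed in both media and Zfp703 newly without serine. It gave 1 member higher in untreated and 6 higher in LPS-treated cells for withdrawal, and Zfp384 turned without serine (-0.013).

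Libraries were also left out 1 at a time, in each comparison only those of the groups compared. With LPS and serine 22 to 24 members were higher and 46 to 54 lower (medians -0.28 to -0.21). Without serine 26 to 33 were higher and 47 to 73 lower (medians -0.29 to -0.12). As shares of members these were 13.8% to 15% and 28.8% to 33.8%, and 16.2% to 20.6% and 29.4% to 45.6%. Of the other genes, 28.1% to 29.7% were higher and 23.8% to 25% lower with serine, and 28% to 35.2% and 24.7% to 30.9% without it. Differences from the other genes' median were -0.31 to -0.24 and -0.32 to -0.084. For withdrawal in LPS-treated cells the median ranged from 0.0085 to 0.11 and its difference from 0.014 to 0.11, in untreated cells from -0.11 to 0.053 and from -0.086 to 0.047, and for the difference between media from -0.00085 to 0.17 and from 0.0008 to 0.14. Values of members that turned ranged from -0.15 to 0.074 for Zfp189, -0.13 to 0.10 for Zfp217, -0.015 to 0.053 for Zfp384 and -0.057 to 0.011 for Zfp622 with serine, and from -0.25 to 0.064 for Zfp106, -0.082 to 0.045 for Zfp148, -0.28 to 0.089 for Zfp609 and -0.044 to 0.17 for Zfp384 without it. The cause of these moves was not tested. Members with few reads allow only large changes to be seen at this depth.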
